A study of Mus musculus with 9 samples.

Results

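The proteasome subunit genes were taken as every protein-coding gene in the table whose symbol starts with Psm, a letter from a to g and a number. The rule found 50 of 54876 genes. It covers the alpha and beta subunits of the 20S core (Psma, Psmb), the ATPase and non-ATPase subunits of the 19S regulatory particle (Psmc, Psmd), the activators (Psme), an inhibitor (Psmf1) and the core assembly factors (Psmg). The symbol Psmc3ip also matched, although this gene encodes a recombination protein and no proteasome subunit, and it is kept apart from the classes. A further 4 genes with Psm symbols were pseudogenes and fell outside the rule. The rule used symbols and no measured value.

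The proteasome is the main protease for ubiquitin-tagged proteins in the cytosol and nucleus. Its barrel-shaped 20S core holds the proteolytic sites on 3 of the beta subunits, and the alpha rings gate the entry. The 19S particle binds ubiquitin, removes it and uses ATP to unfold the substrate into the core. Beta cells make large amounts of a secreted protein, and the proteasome also degrades secretory proteins that fail to fold. When amino acids are scarce, the proteasome is known as a source of free amino acids.

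RNA came from MIN6 cells, a mouse insulinoma line (strain given as C57BL/6) that serves as a model of pancreatic beta cells and is 1 transformed line. For 24 h the medium held arginine at 0.1, 1 or 20 times its standard concentration, called low, standard and high arginine from here on, with 3 libraries each and 9 in all. No other agent or genotype is given for any group. Since no label says that the replicates were cultured separately, a p-value here reflects the spread among these libraries alone, which may be technical.

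Reads in genes numbered 21550637 to 26300872 per library. Of 8 beta cell markers 7 passed the expression filter, while none of the 8 leukocyte, 5 fibroblast or 4 germ cell markers did. Values are FPKM, fragments scaled by gene length and by a size for each library, which was not the reads in genes. That size was 1.048 to 1.077 times the reads in genes in the low arginine libraries. It was 0.962 to 1.016 times them in standard and 0.969 to 0.994 times them in high arginine, so it differed by group. A gene was tested when its FPKM reached 1 in at least 3 libraries, which left 12300 genes. Changes are differences of log2(FPKM + 1), given with the standard error (SE), and a gene was called at a limma p-value under 0.05 after Benjamini-Hochberg adjustment over all genes tested. Because all low and high arginine changes are taken against the same standard libraries, both are given side by side and their likeness is not tested.

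Of the 50 genes, 48 passed the filter. The other two, Psma8, a testis-specific alpha subunit, and Psmb11, the catalytic subunit of the thymoproteasome, were at 0 FPKM in all 9 libraries. The 48 include Psmc3ip, which had 22.9, 26.9 and 26.3 FPKM in low, 20.7, 22.7 and 22.2 in standard and 21.1, 24.7 and 24.1 in high arginine. Its change in low arginine was 0.20 (SE 0.08, limma Benjamini-Hochberg adjusted p = 0.0454). That call was lost on leaving out any of 7 libraries (low 2 or 3, each standard library, or high 2 or 3), and 21.2% of the exon bases of Psmc3ip are shared with Mlx on the opposite strand.

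In low arginine proteasome genes moved in both directions, and their summed share of reads overlapped between all groups. Against standard arginine, 16 of 48 rose, 16 fell and 16 were not called by limma with Benjamini-Hochberg adjustment, so 66.7% were called. Over all genes tested 62.2% were called, 30.3% higher and 31.9% lower, and the share of proteasome genes lies near this background. The groups did not overlap for 35 of the 48 genes, against 65.4% of all genes tested. The median change of the proteasome genes was 0.02, beside 0.001 for all genes, and the median absolute change was 0.30, beside 0.29. Summed over the family, the share of reads in genes was 0.499 ± 0.00936% under low, 0.495 ± 0.00520% under standard and 0.503 ± 0.0126% under high arginine (SD, n = 3). With FPKM rescaled to TPM, which moves the median of all genes to 0.12, 25 genes were called higher and 13 lower. That is 65.8% of calls higher, beside 61.6% over all genes tested under TPM. Quantile normalization gave 23 and 14 (62.2%), beside 51.4% over all genes. The main scaling gave an even split, beside 48.7% over all genes. Whether the proteasome genes differ from all genes in this was not tested.

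None of the 48 changed by 2-fold or more in low arginine, which 5.20% of all genes tested did. Psmb7 had the greatest absolute change, 0.74, and 11.6% of all genes tested had a greater one. By class, called genes were mostly lower among the alpha subunits (0 higher, 4 lower of 7) and the ATPases (1 and 3 of 6). They were all higher among the 19S assembly chaperones (3 of 3), the core assembly factors (2 of 4) and the inhibitor. They were split among the non-ATPase subunits (5 and 5 of 11), the constitutive beta subunits (1 and 2 of 7), the immunoproteasome subunits (1 and 1 of 3) and the activators (1 and 1 of 5). These counts describe small classes, to be read against 30.3% higher and 31.9% lower of all genes tested, and no difference between classes was tested. The ATPase split was 2 and 2 under TPM and 2 and 1 under quantile normalization, and that of the activators 4 and 0 under TPM and 3 and 1 under quantile normalization.

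**Figure D1:**
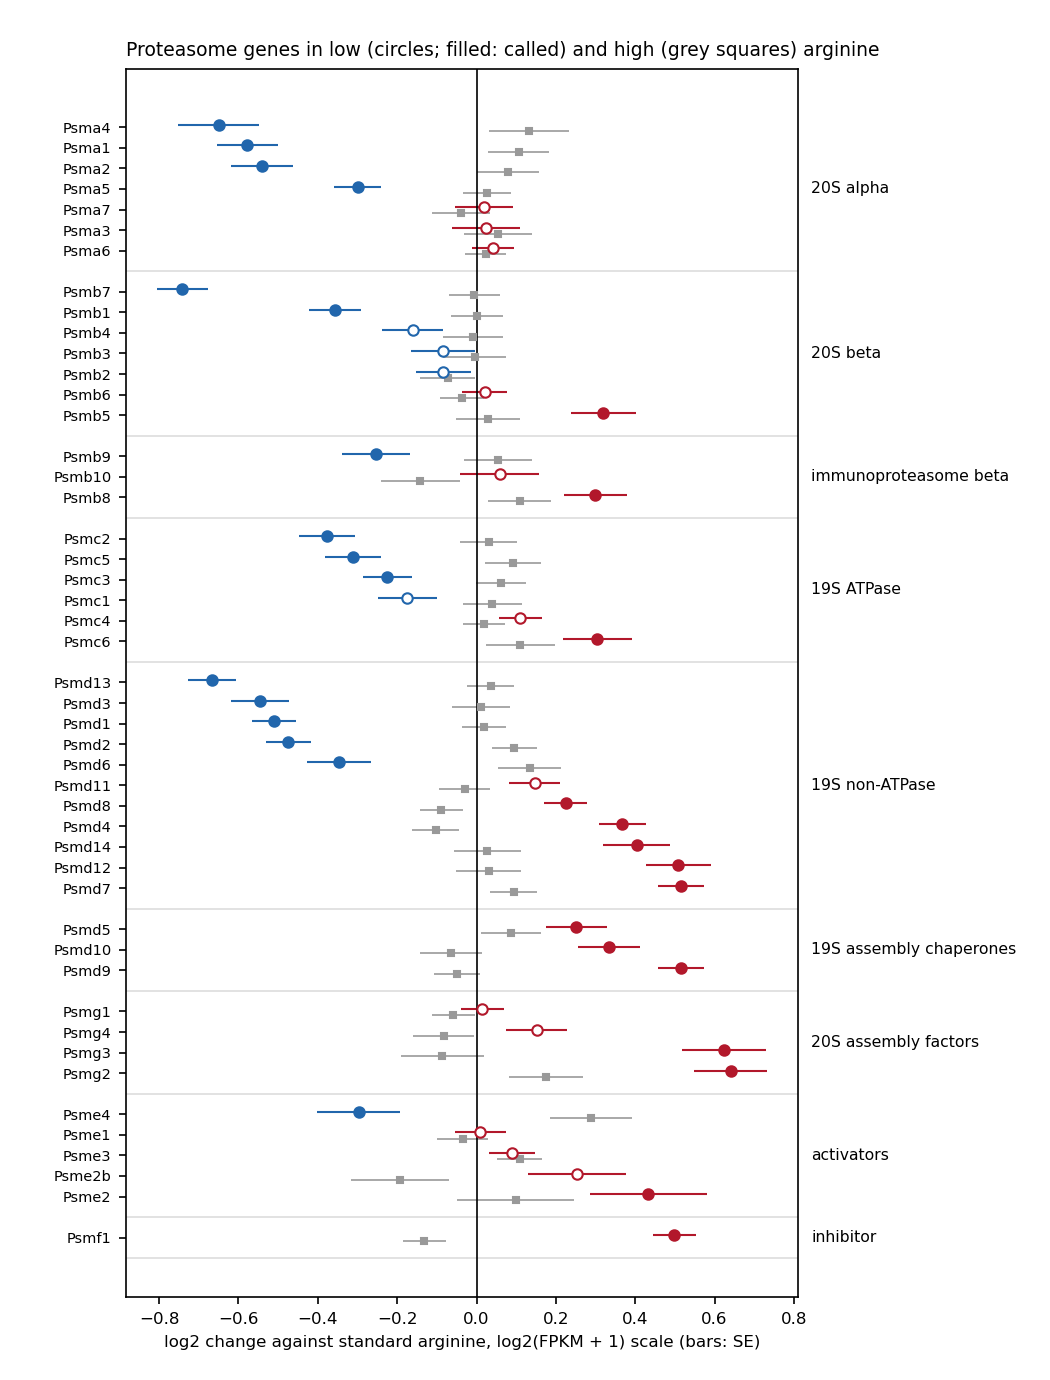
Change of each of 47 tested proteasome genes on the log2(FPKM + 1) scale against standard arginine, grouped by class; Psmc3ip is not shown. Circles give low arginine with the SE, filled where called, and grey squares give high arginine; circles run from -0.74 (Psmb7) to 0.64 (Psmg2), and squares lie between -0.19 and 0.29.

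High arginine left these genes close to standard. In limma with Benjamini-Hochberg adjustment none of the 48 was called, against 0.309% of all genes tested (0.138% higher and 0.171% lower). An unadjusted limma p under 0.05 was seen for 1762 of all 12300 genes tested and for 2 of the 48. These 2 were Psme4 at 0.29 (SE 0.10, adjusted p = 0.251) and Psmf1 at -0.13 (SE 0.05, adjusted p = 0.304). They were also the only 2 genes whose high and standard libraries did not overlap, against 18.5% of all genes tested. Voom weights, TPM, quantile normalization and the replicate block also called 0, while array weights called 2, Psme4 at 0.33 (adjusted p = 0.0258) and Psmg2 at 0.29 (adjusted p = 0.0308). All changes lay between -0.19 and 0.29, with a median of 0.03 beside 0.01 for all genes. For 41 of 48 genes the absolute change was smaller in high than in low arginine, a count not made over all genes. The median absolute change was 0.06 in high and 0.30 in low arginine, beside 0.08 and 0.29 for all genes tested.

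High against low arginine tests whether the 2 media differ. Here 17 genes were higher and 14 lower in high arginine, 64.6% of 48, against 61.5% of all genes tested (32.3% higher and 29.2% lower). The groups did not overlap for 35 genes, against 68.4% of all genes tested. Of the 32 genes called in low against standard arginine, 27 were called here too, and 4 further genes were called only here. Both contrasts use the same low libraries, so their calls are not independent. This overlap was not counted over all genes tested. Same-numbered low and high libraries deviated together, and with the replicate block 18 genes were higher and 18 lower. The share of all genes called with the block is not given here, so these counts have no background beside them. The calls added by the block were those of Psmb4 (0.15, adjusted p = 0.0423) as higher, and of Psmb8 (-0.19, adjusted p = 0.0345), Psmc6 (-0.19, adjusted p = 0.0455), Psmd5 (-0.16, adjusted p = 0.0300) and Psmc3ip (-0.12, adjusted p = 0.0363) as lower. It took no call away. TPM gave 16 higher and 26 lower (38.1% of calls higher), beside 39.5% over all genes tested under TPM. Quantile normalization gave 15 and 24 (38.5%), beside 48.5% over all genes. The main scaling gave 54.8%, beside 52.5% over all genes.

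Promoter sequence is shown for 5 genes that the results below turn on, 3 that rose in low arginine (Psmb5, Psmd9, Psmd4) and 2 that fell (Psma1, Psmd13). Each is the 250 bases before the RefSeq start on GRCm38.p6, 5′ to 3′ along the gene. The regions are chr14:54617996-54618245 on the minus strand for Psmb5, chr5:123227940-123228189 on the plus strand for Psmd9, chr3:95042615-95042864 on the minus strand for Psmd4, chr7:114276117-114276366 on the minus strand for Psma1 and chr7:140882144-140882393 on the plus strand for Psmd13. Capitals mark TGACNNNGC in Psmb5 and Psmd9 (the core of the antioxidant response element, bound by NRF1 and NRF2 with small MAF proteins), CCAAT on either strand in Psmd4 and Psma1 (bound by NF-Y) and TGATGNAAN on the reverse strand in Psmd13 (the element bound by CEBP and ATF heterodimers).
Psmb5: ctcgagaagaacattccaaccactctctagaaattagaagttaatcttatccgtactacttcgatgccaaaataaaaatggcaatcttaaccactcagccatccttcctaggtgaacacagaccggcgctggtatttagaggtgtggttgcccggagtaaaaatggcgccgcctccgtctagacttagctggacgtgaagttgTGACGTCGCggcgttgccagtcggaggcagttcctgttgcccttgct
Psmd9: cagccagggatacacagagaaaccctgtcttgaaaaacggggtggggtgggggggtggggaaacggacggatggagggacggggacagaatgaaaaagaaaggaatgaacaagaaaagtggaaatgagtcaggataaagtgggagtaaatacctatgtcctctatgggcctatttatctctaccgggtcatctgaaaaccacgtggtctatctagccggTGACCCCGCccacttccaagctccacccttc
Psmd4: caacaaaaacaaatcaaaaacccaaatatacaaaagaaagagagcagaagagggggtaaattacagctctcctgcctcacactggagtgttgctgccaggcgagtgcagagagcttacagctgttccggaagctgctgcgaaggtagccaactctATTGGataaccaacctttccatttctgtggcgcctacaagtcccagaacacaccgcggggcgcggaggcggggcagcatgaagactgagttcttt
Psma1: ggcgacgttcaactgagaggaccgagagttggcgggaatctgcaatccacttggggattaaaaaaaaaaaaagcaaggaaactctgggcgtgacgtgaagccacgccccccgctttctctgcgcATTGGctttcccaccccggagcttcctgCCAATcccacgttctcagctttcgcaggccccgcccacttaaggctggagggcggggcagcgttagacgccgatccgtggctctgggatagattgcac
Psmd13: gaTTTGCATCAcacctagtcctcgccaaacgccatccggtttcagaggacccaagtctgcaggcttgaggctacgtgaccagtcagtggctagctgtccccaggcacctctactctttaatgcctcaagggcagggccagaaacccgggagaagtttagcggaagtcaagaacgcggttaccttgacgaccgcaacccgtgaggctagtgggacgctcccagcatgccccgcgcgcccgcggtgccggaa
In these windows the Psmb5 match lies at -47 to -39 and the Psmd9 match at -31 to -23 from the start. Psma1 holds CCAAT on both strands, at -126 to -122 and at -98 to -94, while Psmd4 holds it at -95 to -91 and Psmd13 has its match at the far end of the window, at -248 to -240. The Psmd9 window follows the RefSeq start, which lies inside the longer gene span in the deposited table (chr5:123169413-123250131).

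The promoter table, with 250 bases before to 50 after each start, held 42 of the 50 genes. TGACNNNGC, searched on both strands, occurred in 6 of 42 genes (Psmb5, Psmb6, Psmc6, Psmd12, Psmd9 and Psme4), or in 13.3% of their 45 promoters, beside 12.4% of all 32851 promoters. It was present in 4 of 14 genes that rose in low arginine, 1 of 12 that fell and 1 of 15 that were not called, the 42nd gene being Psmb11, which was not tested. CCAAT occurred in 33.3% of the proteasome promoters, beside 37.4% of all, in 4 of 14 that rose, 4 of 12 that fell and 6 of 15 not called. TGATGNAAN occurred in Psmd13 alone, 2.22% of the proteasome promoters beside 3.95% of all. The shares over all proteasome promoters lie near those of all promoters. Per gene, TGACNNNGC occurred in 13.99% of all genes in the promoter table. The 4 of 14 genes that rose lie above that share, and the 1 of 12 that fell and 1 of 15 not called lie below it. These counts are small, and whether a motif differs by direction was not tested. Median GC content was 57.3% in the proteasome promoters and 52.7% in all, with 55.3% for genes that rose, 59.0% for genes that fell and 58.0% for genes not called. The motifs as searched do not contain one another. A match is a description of the letters and says nothing of binding.

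In standard arginine the highest level per gene length was that of Psmb5, at 173 ± 19.3 FPKM, and the lowest that of Psmb9, at 1.31 ± 0.0473 FPKM (SD, n = 3). Class medians of the standard level were 85.0 FPKM for the beta subunits, 70.6 for the ATPases, 42.9 for the alpha subunits, 33.2 for the non-ATPase subunits, 28.0 for the activators and 26.9 for the core assembly factors. The 19S assembly chaperones had a median of 8.44 FPKM, the inhibitor 6.18 and the immunoproteasome subunits 5.07. Genes next to each other in this order overlapped in their standard libraries in 33 of 46 pairs, so the order is coarse. FPKM used a single length per gene, from 555 to 8382 bases.

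The alpha subunits form the outer rings of the core. Of the 7, 4 fell in low arginine, by 0.30 to 0.65, and the other 3 changed by 0.02 to 0.04 and were not called. Psma4 had 19.3, 24.6 and 23.4 FPKM in low, 32.9, 36.6 and 37.3 in standard and 34.2, 42.2 and 41.4 in high arginine. All 3 low libraries lay below all 6 others, and Psma4 fell by 0.65 (SE 0.10, limma Benjamini-Hochberg adjusted p = 0.000259). Psma1, whose promoter holds the CCAAT pair shown above, had 26.4, 30.1 and 28.9 FPKM in low, 40.5, 43.4 and 44.9 in standard and 41.7, 49.0 and 48.5 in high arginine. Its low libraries again lay apart from the rest, and it fell by 0.58 (SE 0.08, adjusted p = 7.65e-05). In high against standard arginine the changes were 0.13 for Psma4 and 0.11 for Psma1, neither called. Summed over the class, the level was 321 ± 14.8 FPKM under low, 367 ± 14.8 under standard and 378 ± 17.6 under high arginine. One further alpha subunit was called higher under TPM and under quantile normalization, and 4 were called lower under each.

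The constitutive beta subunits include the 3 with proteolytic sites, and these did not move together. Psmb7, the trypsin-like subunit (chr2:38588036-38644087, GRCm38), had 21, 24.1 and 22.5 FPKM in low, 37.1, 40.7 and 37.2 in standard and 36.6, 39.6 and 38.2 in high arginine. No low library reached any other, and Psmb7 fell by 0.74 (SE 0.06, limma Benjamini-Hochberg adjusted p = 3.96e-06). Psmb5, the chymotrypsin-like subunit (chr14:54614119-54618022, minus strand), had 224, 209 and 214 FPKM in low, 186, 183 and 151 in standard and 187, 169 and 172 in high arginine. Its low libraries were all above the others, with 1 standard library, the third, apart at the bottom, and Psmb5 rose by 0.32 (SE 0.08, adjusted p = 0.00565). Psmb6, the caspase-like subunit, had 96.3, 92.4 and 89.8 FPKM in low, 95.3, 92.9 and 86.3 in standard and 91.9, 88.3 and 87.3 in high arginine. These overlapped throughout, and its change was 0.02 (SE 0.06, adjusted p = 0.766).

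From these means the level of Psmb7 per length was 38.3 ± 2.05 FPKM in standard and 22.5 ± 1.52 in low arginine, while Psmb5 went from 173 ± 19.3 to 216 ± 7.64 FPKM (SD, n = 3). In high arginine they had 38.1 ± 1.5 and 176 ± 9.92 FPKM, with changes of -0.01 and 0.03. Psmb1, a beta subunit without a proteolytic site, was the only other one called. It had 25.2, 29.8 and 28.4 FPKM in low, 35.6, 37.4 and 34.6 in standard and 35.4, 36.1 and 36.1 in high arginine, with no overlap of low with the rest, and fell by 0.36 (SE 0.06, limma Benjamini-Hochberg adjusted p = 0.000715). The other 3 of the 7 had changes of -0.16 to -0.08. All 3 passed the test as lower on leaving out the third standard library, with changes of -0.25 to -0.15 (Psmb2, Psmb3 and Psmb4, named after their values were seen). The class median was -0.09, and 0.04 under TPM and 0.09 under quantile normalization, so its sign depends on the scaling.

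Reads of some of these genes could be shared with others. Of the exon bases of Psmb7, 11.8% overlap Nek6 on the opposite strand, whose level was 1.40 FPKM in low and 0.916 in standard arginine, opposite in direction to Psmb7. Of the 100-base stretches in the transcripts of Psmb5, 22.2% also occur in the loci Gm3375 and Mir686. Whether featureCounts used strand is not stated in the sources used here. Psmb7 and Psmb5 are uncertain to that extent.

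**Figure D2:**
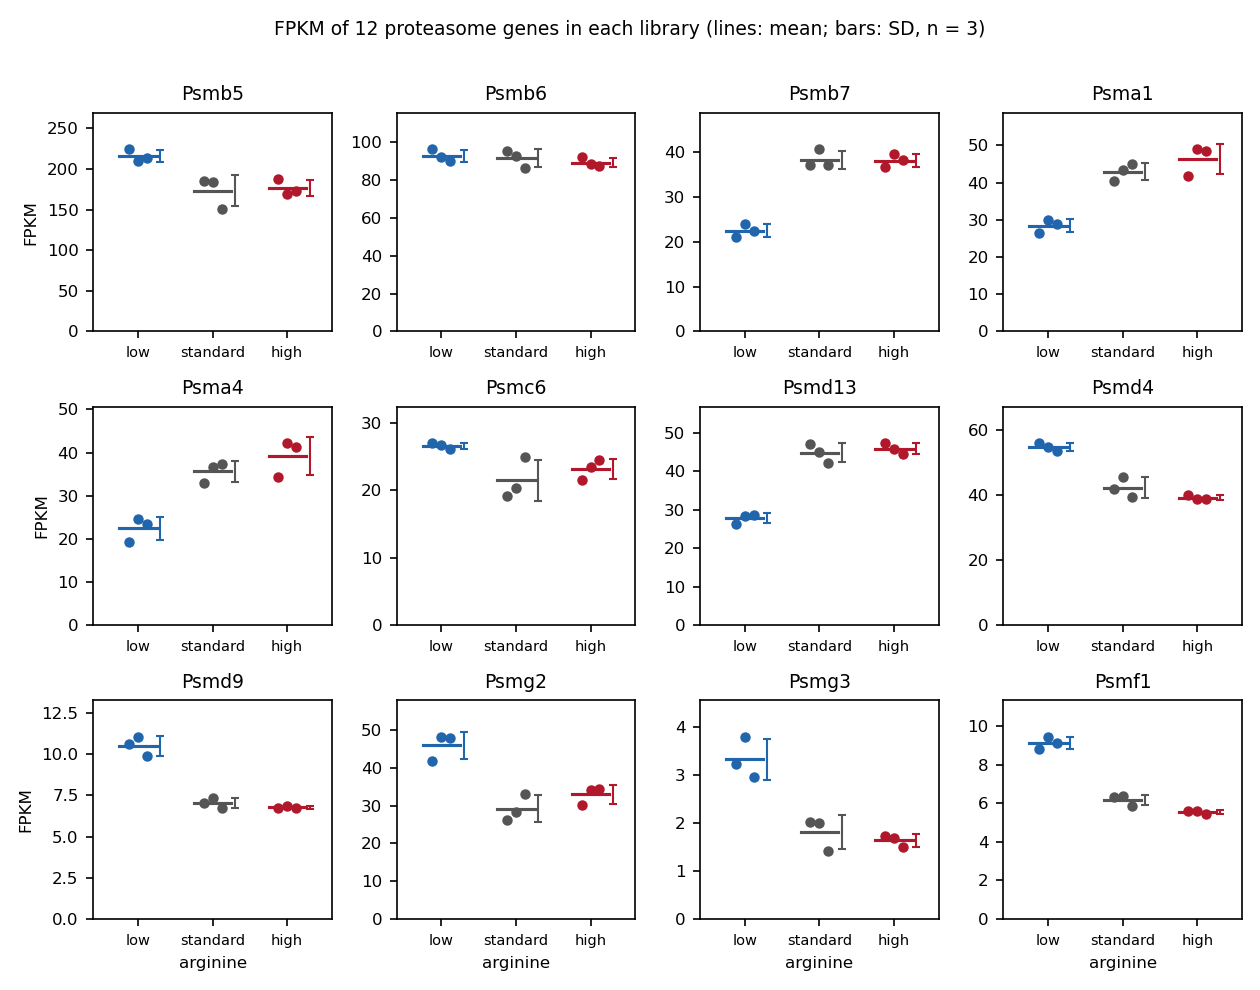
FPKM of 12 proteasome genes in each of the 9 libraries; each point is a library, lines are means and bars are SD (n = 3). In the panels of Psmb7, Psma1, Psma4 and Psmd13 the low arginine libraries lie below all others, in those of Psmb5, Psmd4, Psmd9, Psmg2, Psmg3 and Psmf1 they lie above, and in that of Psmb6 the groups overlap.

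Immunoproteasome subunits replace the constitutive catalytic ones after interferon signals and alter which peptides are cut for antigen presentation. Psmb8, which takes the place of Psmb5, had 7.43, 5.97 and 6.07 FPKM in low, 5.03, 5.27 and 4.89 in standard and 5.91, 5.56 and 5.17 in high arginine. Low and standard libraries did not overlap, and Psmb8 rose by 0.30 (SE 0.08, limma Benjamini-Hochberg adjusted p = 0.00743). Psmb9, which takes the place of Psmb6, had 1.07, 0.783 and 0.971 FPKM in low, 1.36, 1.29 and 1.28 in standard and 1.29, 1.52 and 1.39 in high arginine, low being below all others. It fell by 0.25 (SE 0.09, adjusted p = 0.0238), with adjusted p = 0.0914 without low library 2, 0.0699 without standard library 1 and 0.0773 under TPM. Psmb10, which takes the place of Psmb7, had 7.5, 5.72 and 5.62 FPKM in low, 6.35, 6.22 and 5.32 in standard and 5.32, 5.0 and 5.59 in high arginine. Low and standard overlapped, and the change of Psmb10 was 0.06 (SE 0.10, adjusted p = 0.629). The first low library was the highest of its group for all 3 subunits.

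Each immunoproteasome subunit was also set against the one it replaces, as a ratio of FPKM. Psmb8 stood at 3.00 ± 0.270% of Psmb5 under low, 2.94 ± 0.269% under standard and 3.15 ± 0.145% under high arginine (SD, n = 3). These overlapped. The tests used log2 ratios with 1 FPKM added to both genes, unlike the percentages. On that scale Psmb8 to Psmb5 differed by -0.02 for low against standard, with an exact two-sided permutation p of 0.7. Psmb9 stood at 1.01 ± 0.145% of Psmb6 under low, 1.43 ± 0.0439% under standard and 1.57 ± 0.159% under high arginine, and low did not overlap the others. Psmb10 stood at 28.2 ± 6.56% of Psmb7 under low, 15.6 ± 1.41% under standard and 13.9 ± 1.13% under high arginine, again without overlap of low with the others, and its numerator was not called while its denominator fell. With 3 libraries against 3 the smallest exact two-sided permutation p is 0.1, which Psmb9 and Psmb10 reached when low was compared with standard and with high arginine (0.225 after Benjamini-Hochberg adjustment over the 9 tests). With 1 FPKM added, the difference of log2 ratios in low against standard arginine was -0.27 for Psmb9 to Psmb6. It was 0.80 for Psmb10 to Psmb7, so the pairs moved in opposite directions. The added 1 FPKM holds down the difference of so low a gene as Psmb9. Leukocytes are rich in these subunits. None of the 8 leukocyte markers passed the filter and 3 of them, Ptprc, H2-Aa and H2-Ab1, were at 0 in every library. Their summed level ran from 1.09 to 1.28 FPKM under low, from 0.177 to 0.571 under standard and from 0.30 to 0.727 under high arginine, and its part in the result was not tested.

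**Figure D3:**
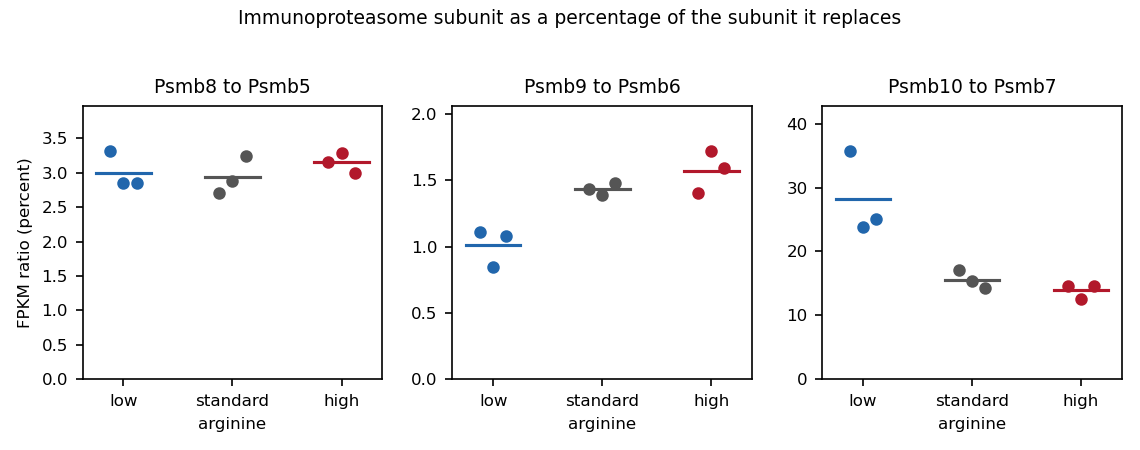
FPKM of each immunoproteasome subunit as a percentage of the constitutive subunit it replaces, per library (points) with group means (lines). Psmb10 to Psmb7 averaged 28.2% in low and 15.6% in standard arginine, Psmb9 to Psmb6 1.01% and 1.43%, and Psmb8 to Psmb5 3.00% and 2.94%.

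The 6 ATPases form the ring of the 19S particle that unfolds substrates. In low arginine 3 fell and 1 rose. Psmc2 had 23.0, 27.3 and 26.2 FPKM in low, 33.5, 33.7 and 32.8 in standard and 31.9, 36.1 and 34.2 in high arginine, the low libraries below all others, and fell by 0.38 (SE 0.07, limma Benjamini-Hochberg adjusted p = 0.000901). Psmc5 had 110, 110 and 103 FPKM in low, 138, 144 and 120 in standard and 140, 148 and 140 in high arginine, without overlap of low with the rest, and fell by 0.31 (SE 0.07, adjusted p = 0.00294). Under quantile normalization the call of Psmc5 was lost (-0.07, adjusted p = 0.274). Psmc6 went the other way. It had 27.0, 26.6 and 26.1 FPKM in low, 19.2, 20.3 and 24.9 in standard and 21.5, 23.5 and 24.4 in high arginine, so its low libraries were above all others by a small margin, and it rose by 0.30 (SE 0.09, adjusted p = 0.0109). The class sum was 393 ± 12.1 FPKM under low, 436 ± 17.1 under standard and 453 ± 15.6 under high arginine (SD, n = 3).

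The remaining ATPases had changes of -0.22, -0.17 and 0.11. The first of them, Psmc3, was called (SE 0.06, limma Benjamini-Hochberg adjusted p = 0.00889), but not under TPM (adjusted p = 0.0982) or quantile normalization (adjusted p = 0.103). Of the exon bases of Psmc3, 8.25% overlap Slc39a13 on the opposite strand, which had 6.48 FPKM in low and 12.4 in standard arginine and fell by 0.84, so Psmc3 is uncertain. In high against standard arginine the 6 ATPases had changes of 0.02 to 0.11, all above 0 and none called.

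The non-ATPase subunits were evenly divided. They build the lid of the 19S particle and part of its base, and include the ubiquitin receptors and the deubiquitinase. Of 11, 5 rose, 5 fell and 1 was not called, while 62.2% of all genes tested were called. In all 11 the low and standard libraries did not overlap, against 65.4% of all genes tested. In high against low arginine all 11 were called, 5 higher and 6 lower, against 61.5% of all genes tested. Whether this class differs from all genes was not tested.

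Psmd13, a structural lid subunit, had 26.3, 28.5 and 28.8 FPKM in low, 47.2, 45.0 and 42.3 in standard and 47.4, 45.8 and 44.6 in high arginine. The gap between the low and all other libraries was wider than the spread within any group, and Psmd13 fell by 0.67 (SE 0.06, limma Benjamini-Hochberg adjusted p = 4.87e-06). Of its exon bases 10.1% overlap Sirt3 on the opposite strand, which had 3.59 FPKM in low and 2.96 in standard arginine, opposite in direction. Psmd3, another structural lid subunit, had 19.2, 18.0 and 17.1 FPKM in low, 27.7, 29.1 and 24.1 in standard and 27.8, 27.1 and 26.4 in high arginine, and fell by 0.55 (SE 0.07, adjusted p = 8.17e-05). Psmd2, the large base subunit that docks ubiquitin shuttle factors, had 72.3, 75.1 and 73.6 FPKM in low, 103, 109 and 95.9 in standard and 110, 111 and 108 in high arginine, and fell by 0.47 (SE 0.06, adjusted p = 3.69e-05). In both genes the low libraries were below all others.

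Psmd4, the ubiquitin receptor at the base, rose instead. It had 55.9, 54.7 and 53.3 FPKM in low, 41.9, 45.5 and 39.2 in standard and 40.0, 38.8 and 38.7 in high arginine, with the low libraries above all others, and rose by 0.37 (SE 0.06, limma Benjamini-Hochberg adjusted p = 0.000351). Psmd14, the deubiquitinase of the lid, and Psmd7, the subunit it pairs with, are named here after their values were seen. Psmd14 had 33.8, 38.1 and 35.4 FPKM in low, 23.5, 28.4 and 28.7 in standard and 25.2, 28.2 and 28.5 in high arginine, and Psmd7 had 66.0, 68.7 and 65.0 in low, 47.4, 47.6 and 43.9 in standard and 47.1, 52.4 and 48.9 in high arginine. The low libraries were the highest for both. Psmd14 rose by 0.40 (SE 0.08, adjusted p = 0.00184) and Psmd7 by 0.52 (SE 0.06, adjusted p = 2.71e-05). The other called non-ATPase subunits changed by -0.51 and -0.35 and by 0.22 and 0.51. By position in the particle, the 9 base genes had 2 higher and 5 lower with a median of -0.22, and the 8 lid genes 4 higher and 3 lower with a median of 0.19.

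Assembly of the 19S base uses chaperones that carry Psmd symbols but do not stay in the finished particle, and all 3 were higher in low arginine. Psmd9 had 10.6, 11.1 and 9.87 FPKM in low, 7.06, 7.35 and 6.75 in standard and 6.72, 6.87 and 6.75 in high arginine, so the low libraries stood apart above 6 others that ran from 6.72 to 7.35. Psmd9 rose by 0.51 (SE 0.06, limma Benjamini-Hochberg adjusted p = 2.25e-05). Psmd10, also called gankyrin, had 12.7, 15 and 13.9 FPKM in low, 12, 10.3 and 10.1 in standard and 10.2, 10.7 and 9.83 in high arginine, and rose by 0.33 (SE 0.08, adjusted p = 0.00375). The third, Psmd5, had 9.16, 10.9 and 10.7 FPKM in low, 8.26, 8.31 and 8.74 in standard and 8.25, 9.73 and 9.14 in high arginine. Psmd5 rose by 0.25 (SE 0.08, adjusted p = 0.0147), and this was lost without low library 2 (adjusted p = 0.0604) or 3 (adjusted p = 0.0550). Of the exon bases of Psmd9, 25.5% overlap Gm26745, listed at 0 in every group.

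The Psmg genes encode chaperones that pair up to build the alpha ring of the core, and the 2 called ones had the greatest rises of all proteasome genes. Psmg2 had 41.8, 48.2 and 47.8 FPKM in low, 26.1, 28.3 and 33.1 in standard and 30.2, 34.2 and 34.5 in high arginine, and rose by 0.64 (SE 0.09, limma Benjamini-Hochberg adjusted p = 0.00015). Psmg3 had 3.23, 3.80 and 2.96 FPKM in low, 2.03, 2.0 and 1.41 in standard and 1.74, 1.68 and 1.5 in high arginine, and rose by 0.62 (SE 0.11, adjusted p = 0.000436). For both, every low library was above the other 6. The pseudocount of 1 holds down the change of so low a gene as Psmg3, whose ratio of mean FPKM was 1.83. The other two factors had changes of 0.01 and 0.15 and were not called. They were both called higher under TPM, and 1 of them under quantile normalization.

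Psmf1 encodes an inhibitor of the core. It had 8.80, 9.45 and 9.15 FPKM in low, 6.31, 6.36 and 5.86 in standard and 5.63, 5.58 and 5.43 in high arginine. The 3 groups did not overlap, with high arginine the lowest, and Psmf1 rose by 0.50 in low arginine (SE 0.05, limma Benjamini-Hochberg adjusted p = 1.89e-05).

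Activators are alternative caps that open the core without ubiquitin or ATP. Psme4, which encodes the large nuclear cap PA200, had 11.8, 9.50 and 9.70 FPKM in low, 12.6, 11.1 and 15.1 in standard and 16.0, 15.7 and 16.1 in high arginine. Low and standard libraries overlapped, while the high libraries lay above all others. Its change was called in low against standard arginine at -0.30 (SE 0.10, limma Benjamini-Hochberg adjusted p = 0.0282), but this was lost under TPM (-0.19, adjusted p = 0.212) and without low library 2 or 3 or standard library 1 or 3 (adjusted p from 0.0533 to 0.0982), with no filter on low genes (adjusted p = 0.0891) and with only the low and standard groups fitted (adjusted p = 0.0514). High against low arginine differed by 0.59 (SE 0.10, adjusted p = 0.000592).

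Psme1 and Psme2 form the interferon-induced cap PA28. Psme1 had 23.8, 24.1 and 23.3 FPKM in low, 24.5, 24.7 and 21.6 in standard and 21.7, 24.1 and 23.1 in high arginine, overlapping throughout, with a change of 0.01 in low arginine (SE 0.06, limma Benjamini-Hochberg adjusted p = 0.901). Psme2 had 43.8, 32.3 and 38.0 FPKM in low, 29.8, 31.7 and 22.4 in standard and 28.8, 35 and 26.0 in high arginine. Its low and standard libraries did not overlap, by a narrow margin, and it was called at 0.43 (SE 0.15, adjusted p = 0.0255), which was lost without low library 1 or 3 or standard library 3 (adjusted p from 0.0582 to 0.0956), with array weights (adjusted p = 0.0729) and with no filter on low genes (adjusted p = 0.0952). Its near copy Psme2b had 48.7, 65.4 and 47.8 FPKM in low, 43.6, 44.4 and 46.1 in standard and 34.8, 37.0 and 45.8 in high arginine, with a change of 0.25 (SE 0.12, adjusted p = 0.0987). In the transcripts of Psme2b 52.0% of 100-base stretches also occur in Psme2, and 18.4% the other way, so reads may be split between them and both values are uncertain. The fifth gene of the class had a change of 0.09 and was not called.

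Genes that work with the proteasome were taken from lists written from textbook knowledge, and each one said to rise or fall was called by limma after Benjamini-Hochberg adjustment. Over all genes tested 62.2% were called in low against standard arginine, 30.3% higher and 31.9% lower, and the counts of the lists are to be read against these shares. Among partners and assembly factors outside the Psm symbols, 12 of 13 were tested, and 3 rose and 6 fell in low arginine, with a median of -0.21. Pomp, the maturation factor of the core, had 10.1, 11.4 and 10.9 FPKM in low, 18.6, 19.6 and 17.6 in standard and 18.1, 18.2 and 17.7 in high arginine. Its low libraries were far below the others, and Pomp fell by 0.73, while Psmg2 and Psmg3, which act before it, rose. Adrm1, a ubiquitin receptor of the 19S particle, rose by 0.50, as Psmd4 did. Of 11 genes for the transcriptional control of proteasome genes, 5 rose and 0 fell, so 45.5% were called. Nfe2l1, which encodes NRF1, the factor that raises proteasome genes when proteasome activity is low, had 118, 119 and 110 FPKM in low, 103, 111 and 99.2 in standard and 107, 102 and 99.1 in high arginine. Low and standard overlapped by 1 library, and Nfe2l1 was called at 0.15 (SE 0.06, limma Benjamini-Hochberg adjusted p = 0.0476). Nfyb and Nfyc, subunits of NF-Y, rose by 1.28 and 0.79.

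Around the substrates, 2 of 6 ubiquitin and E1 genes rose and 1 fell. Ubb, a polyubiquitin gene, rose by 0.55. Of 10 tested shuttle receptors and VCP complex genes 5 rose and 1 fell (60.0% called), and Rad23b and Ubqln2, both shuttle receptors, rose by 0.50 and 0.36. In antigen processing, 2 of 6 tested genes rose and 1 fell. Irf1, a factor that drives immunoproteasome genes, rose by 0.78, and Tapbp, the peptide-loading chaperone tapasin, fell by 0.94. In high against standard arginine limma with Benjamini-Hochberg adjustment called 0 genes of these 5 lists. There 5 had an unadjusted p under 0.05, beside 1762 of all 12300 genes tested.

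Other complexes with many subunits had genes called in both directions. The COP9 signalosome, which has the architecture of the 19S lid, had 6 of 10 genes higher and 3 lower in low arginine, with a median of 0.25. Cops5, its catalytic subunit, rose by 0.44, and Cops9 fell by 0.88. The translation factor eIF3, of related architecture, had 2 of 14 higher and 7 lower (median -0.07), with Eif3c at 0.48 and Eif3i at -0.48. The chaperonin TRiC had 3 of 8 higher and 5 lower (median -0.19), with Cct6a at 0.56 and Cct2 at -0.37. Both directions are also near evenly split over all genes tested (30.3% higher and 31.9% lower), so nothing particular to these complexes or to the proteasome is read from the mix, and no difference between complexes was tested.

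**Figure D4:**
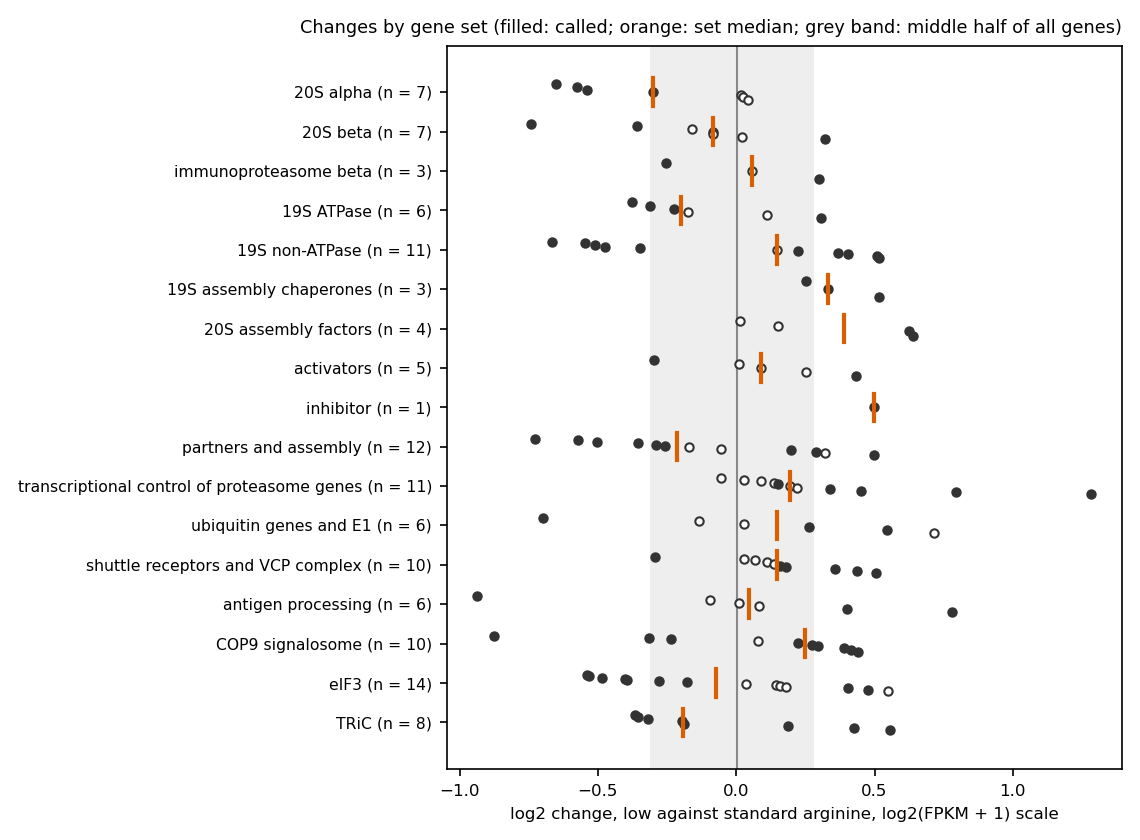
Change of each tested gene in low against standard arginine on the log2(FPKM + 1) scale, by proteasome class, by list of partner genes and by comparison complex. Filled points were called, orange bars are medians and the grey band spans the middle 50% of all genes tested (-0.31 to 0.28); the 20S alpha median is -0.30 and that of the core assembly factors 0.39.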

How the data were processed

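The deposited table gives FPKM per gene and library with the gene length, per the file headers; per the submitters' processing notes, the authors used featureCounts 1.5.0-p3, HISAT2 2.0.5 and CASAVA 1.8. Those notes name mm9, but 48 of the 50 members carry the GRCm38 start and end of GENCODE M21, so coordinates are given as GRCm38. Libraries came from total RNA with a directional kit, per the labels' protocols. Multiplied by gene length, 100% of FPKM values were whole multiples of 1 read (tolerance 0.01 reads), which gave the reads per library; replicates differed by more than sampling noise (chi-square per degree of freedom 2.68 to 13.6). Unused columns of values per sample numbered 0.

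FPKM is not a count, so log2(FPKM + 1) was fitted with limma 3.58.1 in R 4.3.3 over genes with FPKM of at least 1 in at least 3 libraries. A single fit of the 9 libraries had group as its only term (6 residual degrees of freedom), with the prior variance following the mean level. P-values are two-sided. Same-numbered libraries deviated together, at a correlation over 0.1, in 6 of 9 pairs (-0.0355 to 0.243), among them all 3 of low with high arginine (0.153 to 0.243); this pairing is read from the data, not from the labels. The scale understates changes of low genes. Ratios of immunoproteasome to constitutive FPKM were compared by exact permutation on log2 values, with 1 FPKM added to each gene. The percentages are of FPKM itself. Promoters came from RefSeq on GRCm38.p6; exon overlap and shared 100-base stretches came from GENCODE M21.

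The members and lists were chosen with earlier results of these data known. Values per library are given for a fixed set of catalytic, immunoproteasome, activator and control genes, for the 2 called members of each class with the greatest absolute change, and for the strongest called member of opposite sign to its class median. Each other list gives the 2 called genes with the smallest p. A gene that this rule names is not reported here. Alternatives covered the pseudocount, the filter, scaling, which libraries were fitted, a constant prior variance, array and voom weights, a replicate block, a gene length trend, a 2-fold threshold and leaving out each library.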

Additional observations from a re-analysis of the deposited data

How the results depend on the processing

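Scaling moved the counts of called members. TPM removes the library size behind FPKM, whose ratio to the reads in genes differed by group. The part of that ratio in the moved counts was not tested. Against standard arginine, low arginine gave 25 higher members under TPM, and high against low arginine gave 26 lower ones under TPM and 24 under quantile normalization. Over all 12300 genes tested the matching counts were 4843, 4735 and 3927. Array weights gave 2 higher members in high against standard arginine. A 2-fold threshold on the log2(FPKM + 1) scale moved the counts furthest and left 0 in every contrast and direction. On that scale Psmg3 changed by -0.71 in high against low arginine, while its mean FPKM was 2.03 times as high in low as in high arginine. In high against low arginine, Psmb2 (-0.19) and Psmc1 (-0.00118) turned sign under quantile normalization with a call in either fit, and Psma3, Psmb3, Psmb4 and Psme3 turned sign there without a call in either. The cause was not tested. Leaving out 1 library at a time gave 14 to 16 higher and 14 to 18 lower members in low against standard arginine, 0 in either direction in high against standard, and 16 to 18 higher and 13 to 16 lower in high against low. The ratios of Psmb9 to Psmb6 and Psmb10 to Psmb7 kept their direction in low against standard and high against low arginine under the alternatives run for them. That of Psmb8 to Psmb5 in low against standard arginine turned sign with both smaller pseudocounts and without low library 2 or 3 or standard library 3.

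Replicate numbers are shared between groups. Libraries with the same number deviated together, at a correlation over 0.1, in all 3 pairs of low with high arginine. This did not hold in all pairs of low or high with standard arginine. The main calls of every contrast, high against low arginine included, came from the fit without pairing. The replicate block was run as an alternative for each contrast. With the replicate block, 17 members were higher and 18 lower in low against standard arginine. Neither direction had any (0 and 0) for high against standard, and 18 and 18 were called for high against low. No share of all genes called with the block is set beside these counts, so they are not read as particular to the members. Genes near the filter, such as Psmb9 with about 100 reads per library, are limited by depth, and 3 libraries per group limit all tests.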
